A study of Homo sapiens with 54 samples.

Results

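HepG2 is a human hepatoma line that keeps many functions of liver cells, such as the secretion of plasma proteins. The data described here are the HepG2 arrays (HEP-G2 in the labels) taken after 36 h with calcitriol and those taken at 0 h without it, 2 against 2 across all genes. These 4 arrays are part of 54 Affymetrix Gene 1.0 ST arrays from 9 lines, each with 2 arrays at 0, 8 and 36 h. The 2 HepG2 arrays at 8 h are shown beside them. No genotype or dose is given in the sources used here. HepG2 cultures kept for 36 h without calcitriol were not analysed here, so an effect of calcitriol and an effect of time in culture cannot be told apart. The sample titles give a replicate code and a date that is the same for all 6 HepG2 arrays, and say nothing about separate cultures. The p-values thus measure a spread between samples that may be technical. This spread was pooled over all 54 arrays of the 9 lines and is not that of HepG2 alone.

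Calcitriol is the hormonal form of vitamin D. It binds the nuclear receptor VDR, and the enzyme CYP24A1, which breaks calcitriol down, is the best known target gene. Liver cells make most of the plasma proteins, and such proteins are folded in the endoplasmic reticulum by chaperones. When amino acids run short or folding fails, the factor ATF4 turns on genes for amino acid synthesis and uptake, the amino acid response.

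The hepatocyte markers ALB, APOA1, APOB, TTR, SERPINA1, FGB and AFP were all highest in HepG2 among the 9 lines. ALB lay between 10.66 and 11.41 in the 6 HepG2 arrays and between 2.61 and 3.71 in the other lines, on the log2 scale used throughout. Defining markers of other cell types were far below the line that had most of each. MS4A1, of B cells, lay between 3.53 and 3.92 in HepG2 and reached 10.24 in the other lines. COL1A1, of fibroblasts, lay between 6.33 and 6.79 in HepG2 and reached 12.33, and MPO, of myeloid cells, lay between 4.84 and 5.34 in HepG2 and reached 11.72. IGFBP1 and C5, proposed as marks of this line, were also highest in HepG2, but ASNS had its highest mean in K562.

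The 0 h array of replicate 2 stood apart from the other HepG2 arrays. It correlated at 0.954 with 0 h replicate 1 over all probe sets tested, at 0.958 and 0.959 with the 36 h arrays and at 0.977 and 0.968 with the 8 h arrays. The 36 h pair correlated at 0.988 and the 8 h pair at 0.986. The 0 h array of replicate 1 also had a feature of its own, a mean level of small nuclear and nucleolar RNAs of 5.07 against 4.44 to 4.60 in the other 5 arrays. Counts and the main genes are therefore given with both 0 h arrays and without 0 h replicate 2, and the 36 h arrays are also set against the 8 h arrays, a comparison added after the data were seen. The part of these array differences in the results was not tested beyond these values.

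At 36 h HepG2 had higher levels of genes of the amino acid response, of aminoacyl-tRNA synthetases, of endoplasmic reticulum chaperones and of several secreted plasma proteins. The size of these rises depended on 0 h replicate 2. Their list medians were 0.58, 0.56, 0.78 and 0.43 with it and 0.46, 0.27, 0.61 and 0.25 without it. HepG2 had lower levels of genes for DNA replication and mitosis, of many histone genes and of the fatty acid synthase FASN. IGFBP1, which encodes a binding protein for insulin-like growth factors, showed the largest rise and the histone gene H2BC14 the largest fall.

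A change is the log2 difference between the mean levels at 36 h and 0 h, so that 1 unit is a 2-fold difference, and the number after the ± sign is its standard error. A gene is said to have risen or fallen where limma's Benjamini-Hochberg adjusted p over all 19460 probe sets was under 0.05. With both 0 h arrays, 359 probe sets (1.84%) passed, 204 higher (1.05%) and 155 lower (0.797%), and 2102 had an unadjusted p under 0.05. With 1 probe set for each of 18417 genes this was 187 genes higher (1.02%) and 135 lower (0.733%). The split depended on which 0 h array was used. When 0 h replicate 2 was left out, 278 probe sets passed (1.43%), 57 higher (0.293%) and 221 lower (1.14%), or 54 genes higher (0.293%) and 200 lower (1.09%). When 0 h replicate 1 was left out instead, 676 probe sets passed (3.47%), 548 higher (2.82%) and 128 lower (0.658%), or 476 genes higher (2.58%) and 119 lower (0.646%). Of the 187 and 135 genes, 49 and 111 also passed without 0 h replicate 2, and 41 and 42 passed with either 0 h array left out. No probe set that passed changed sign without 0 h replicate 2. In a fit to the 6 HepG2 arrays alone 19 probe sets passed, 18 higher and 1 lower.

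Against the 8 h arrays 322 probe sets passed (1.65%), 148 higher (0.761%) and 174 lower (0.894%), or 130 genes higher (0.706%) and 166 lower (0.901%). Of the 187 and 135 genes, 105 and 99 also passed against 8 h. Both 36 h arrays lay above all 4 earlier arrays for 183 of the 187 genes that rose. They lay below them for 135 of the 135 that fell. Among all genes the shares were 9.71% and 10.6%. The genes that rose or fell were selected on the same 0 h and 36 h arrays, so part of this gap comes from the selection. At 8 h against 0 h limma called 0 probe sets (0%), with 481 at an unadjusted p under 0.05.

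**Figure D1:**
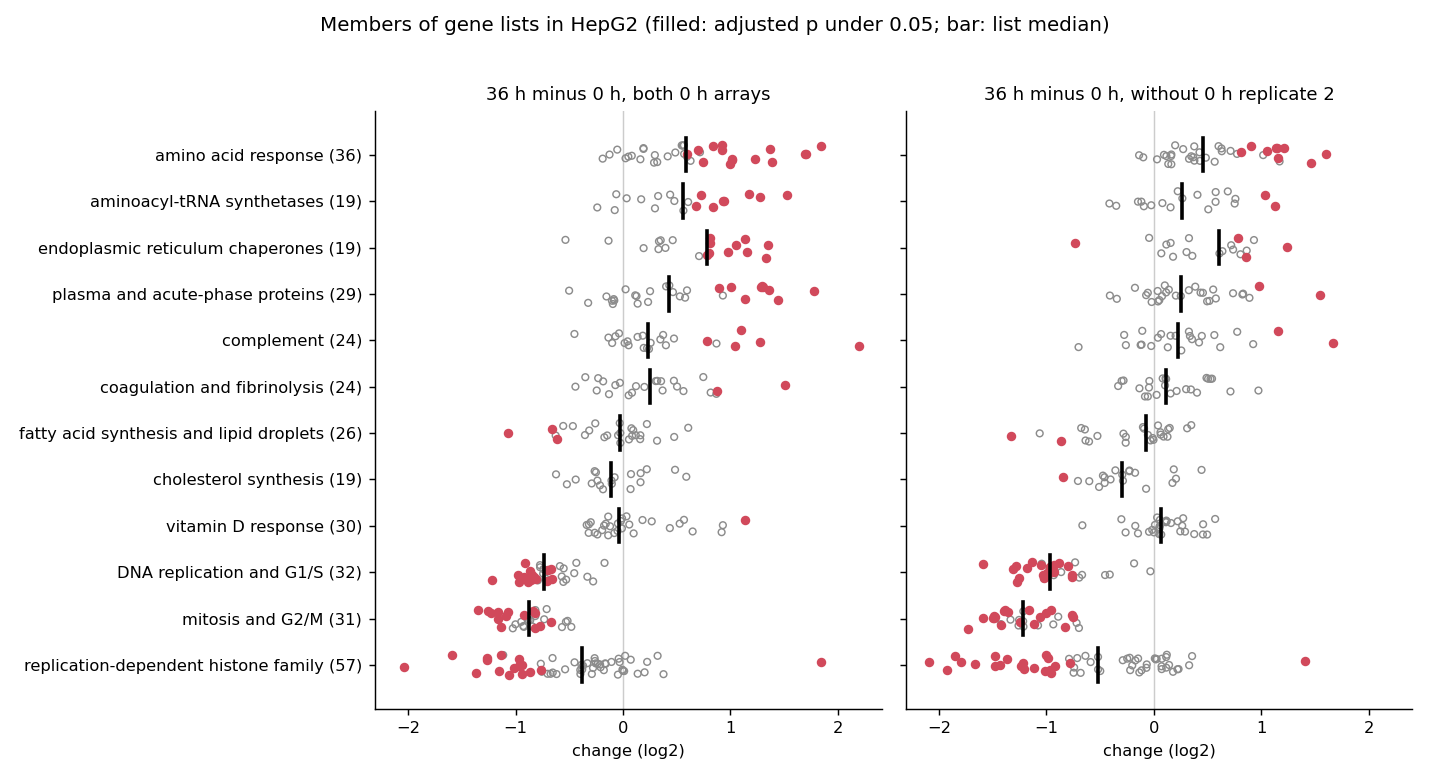
Change from 0 h to 36 h in HepG2 (x axis, log2) for each measured member of 12 gene lists (rows, number of members in brackets), with both 0 h arrays on the left and without 0 h replicate 2 on the right. Filled points passed the test and black bars are list medians; the medians of the 3 upper lists are 0.58, 0.56 and 0.78 on the left and 0.46, 0.27 and 0.61 on the right, and those of replication and mitosis are -0.73 and -0.88 on the left and -0.97 and -1.22 on the right.

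The amino acid response list held 38 entries, of which 36 were measured. With both 0 h arrays 15 members rose and 0 fell, with a list median of 0.58 against -0.02 over all genes. Of all genes 1.02% rose and 0.733% fell. Leaving out 0 h replicate 2, 9 rose and 0 fell with a median of 0.46 (0.03 over all genes), and against 8 h 13 rose and 0 fell with a median of 0.50 (-0.03 over all genes).

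ASNS, the asparagine synthetase, had levels of 8.72 and 8.72 at 36 h, against 7.11 and 6.63 at 0 h. The 36 h arrays were well clear of the 0 h arrays and of the 8 h arrays, which had 7.08 and 6.99. The change was 1.85 ± 0.18 (adjusted p = 1.85e-08), a 3.59-fold rise, and 1.60 without 0 h replicate 2. TRIB3, a pseudokinase that acts as a feedback inhibitor in this response, had 8.44 and 8.39 at 36 h and 7.20 and 6.90 at 0 h, a change of 1.37 ± 0.17 (adjusted p = 7.66e-06). HERPUD1, a membrane protein of the degradation of misfolded proteins, had 9.77 and 9.76 at 36 h and 8.61 and 8.45 at 0 h, a change of 1.23 ± 0.19 (adjusted p = 0.000115). In TRIB3 and HERPUD1 too the groups did not overlap, which in this direction held for 15.8% of all genes. Both were named because they passed on these same arrays, so their lack of overlap is no result. Without 0 h replicate 2 their changes were 1.21 and 1.15.

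The promoters of ASNS and HERPUD1 are shown because they are the risers of this list, in both comparisons, whose promoter holds the C/EBP-ATF response element, a site bound by ATF4. The letters searched were TGATGNAA on both strands, in the 250 bases before the RefSeq start, and capitals mark the match. The sequences are those of RefSeq in GRCh38.p14, read in the direction of transcription.
ASNS (chr7:97872409-97872658, minus strand): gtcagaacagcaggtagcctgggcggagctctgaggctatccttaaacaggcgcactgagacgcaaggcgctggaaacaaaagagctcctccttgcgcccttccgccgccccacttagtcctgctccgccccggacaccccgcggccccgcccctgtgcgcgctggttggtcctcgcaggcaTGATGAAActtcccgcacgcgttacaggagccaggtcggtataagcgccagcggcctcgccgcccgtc
HERPUD1 (chr16:56931892-56932141, plus strand): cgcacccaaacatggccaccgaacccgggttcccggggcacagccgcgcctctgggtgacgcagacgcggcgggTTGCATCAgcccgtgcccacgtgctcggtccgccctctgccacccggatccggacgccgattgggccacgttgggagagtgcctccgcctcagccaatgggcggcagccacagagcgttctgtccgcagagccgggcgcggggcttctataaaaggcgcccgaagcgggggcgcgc
The match lay at bases -68 to -61 in ASNS and, on the opposite strand, at -176 to -169 in HERPUD1. Promoters were found for 29 of the 36 members, and 5 of them (17.2%) held a match, against 2.19% of the promoters of all tested genes. The other 3 were those of ATF3, CHAC1 and FGF21, which did not pass. A match is only a run of letters and does not show binding.

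Among the transporters, SLC7A11, the cystine carrier, had levels of 7.92 and 7.74 at 36 h against 6.36 and 5.88 at 0 h, a change of 1.70 ± 0.29 (adjusted p = 0.000416). Its partner chain SLC3A2 had 9.29 and 9.07 at 36 h against 8.03 and 8.31 at 0 h, a change of 1.01 ± 0.16. SLC1A5 and SLC6A9, carriers of glutamine and glycine, rose by 0.70 and 0.75. Of these 4 carriers SLC7A11 and SLC3A2 passed without 0 h replicate 2.

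Of the enzymes of serine and one-carbon metabolism, PSAT1, PSPH, SHMT2 and MTHFD2 rose, and PHGDH did not pass (adjusted p = 0.0731). PSAT1 had 9.76 and 9.72 at 36 h against 8.69 and 8.76 at 0 h, a change of 1.02 ± 0.18 (adjusted p = 0.000599), and the mitochondrial folate enzyme MTHFD2 had 9.86 and 9.91 against 8.74 and 8.25, a change of 1.39 ± 0.23. SHMT2 (0.92) and PSPH (0.93) also rose, and PSPH did not pass without 0 h replicate 2. CTH, which makes cysteine, had 6.88 and 6.82 at 36 h against 5.68 and 4.63 at 0 h, a change of 1.69 ± 0.31 that did not pass without 0 h replicate 2, where it was 1.17. The stress factor DDIT3 (1.0), the translation inhibitor EIF4EBP1 (0.60) and the lipoprotein receptor VLDLR (0.84) completed the 15, and of these VLDLR passed without 0 h replicate 2. ATF4 itself had 9.79 and 9.79 at 36 h against 9.52 and 8.95 at 0 h, a change of 0.56 ± 0.16 (adjusted p = 0.0734).

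Aminoacyl-tRNA synthetases join amino acids to their tRNAs, and several are known targets of ATF4. Of 19 measured members 8 rose and 0 fell, against 1.02% and 0.733% of all genes, with a median of 0.56. The count was 2 without 0 h replicate 2, with a median of 0.27, and 5 against 8 h, with a median of 0.36. SARS1 had 9.49 and 9.45 at 36 h against 8.44 and 7.95 at 0 h, a change of 1.28 ± 0.17 (adjusted p = 1.06e-05). WARS1 had 8.25 and 8.05 at 36 h against 7.02 and 6.23 at 0 h, a change of 1.52 ± 0.22 (adjusted p = 6.08e-05). These were the 2 that passed without 0 h replicate 2, at 1.03 and 1.13. GARS1, MARS1, CARS1, YARS1, TARS1 and IARS1 had changes of 0.68 to 1.17 with both 0 h arrays. In 0 h replicate 2 the mean level of the list was 7.55, against 7.89 to 8.05 in the other 0 h array and the 8 h arrays and 8.30 to 8.40 at 36 h.

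Chaperones of the endoplasmic reticulum formed the list with the highest median among those examined, 0.78. Of 19 measured members, out of 20 entries, 10 rose and 0 fell, against 1.02% and 0.733% of all genes. With 0 h replicate 2 left out the median was 0.61, 3 rose and 1, the transcription factor CREB3L2 (-0.73), fell. Against 8 h the median was 0.52 and 6 rose. The abundant chaperone HSPA5, also known as BiP, had 11.35 and 11.32 at 36 h against 10.61 and 10.45 at 0 h, a change of 0.80 ± 0.18 (adjusted p = 0.0104). HSP90B1 had 11.52 and 11.54 at 36 h against 10.72 and 10.39 at 0 h, a change of 0.97 ± 0.18 (adjusted p = 0.00144). Neither of these 2 passed without 0 h replicate 2, where they were 0.72 and 0.81, but both passed against 8 h.

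HYOU1, DNAJB9 and PDIA6 were the 3 that also passed without 0 h replicate 2, and of these HYOU1 and DNAJB9 also passed against 8 h. HYOU1, a chaperone that exchanges the nucleotide of HSPA5, had 9.46 and 9.41 at 36 h against 8.58 and 8.18 at 0 h, a change of 1.06 ± 0.17 (adjusted p = 0.000171). The cochaperone DNAJB9 had 6.78 and 6.64 at 36 h against 5.47 and 5.28 at 0 h, a change of 1.33 ± 0.22 (adjusted p = 0.000259). PDIA6, a disulfide isomerase, rose by 0.78 ± 0.16. The other 5 were DNAJC3, DNAJB11, SEL1L, PDIA4 and EDEM1, with changes of 0.81 to 1.35. XBP1, a transcription factor of the response to misfolded proteins, had a change of 0.33 ± 0.19 (adjusted p = 0.587).

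HSPA5 and HSP90B1 were the risers of this list with an endoplasmic reticulum stress element in the same window, a motif added after values were seen. The letters were CCAAT, any 9 bases and CCACG, searched on both strands and shown in capitals.
HSPA5 (chr9:125241344-125241593, minus strand): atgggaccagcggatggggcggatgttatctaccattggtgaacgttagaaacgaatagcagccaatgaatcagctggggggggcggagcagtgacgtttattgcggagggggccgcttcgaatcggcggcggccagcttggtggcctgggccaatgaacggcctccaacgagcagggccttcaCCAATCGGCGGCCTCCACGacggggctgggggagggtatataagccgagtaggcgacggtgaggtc
HSP90B1 (chr12:103930160-103930409, plus strand): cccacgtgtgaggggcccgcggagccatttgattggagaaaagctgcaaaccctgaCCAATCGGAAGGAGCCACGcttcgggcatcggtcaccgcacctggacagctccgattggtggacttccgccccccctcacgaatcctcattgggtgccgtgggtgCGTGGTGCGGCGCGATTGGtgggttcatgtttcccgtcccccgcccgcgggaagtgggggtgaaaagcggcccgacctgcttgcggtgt
HSPA5 held 1 match, at -66 to -48, and HSP90B1 held 2, at -194 to -176 and on the opposite strand at -89 to -71. All 19 members had a promoter in the table and 6 of them (31.6%) held a match, against 0.119% of the promoters of all tested genes. The other 4, those of CANX, CALR, XBP1 and CRELD2, did not pass. Among the 10 that rose the share was 2 of 10 (20.0%), below that of the whole list.

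**Figure D2:**
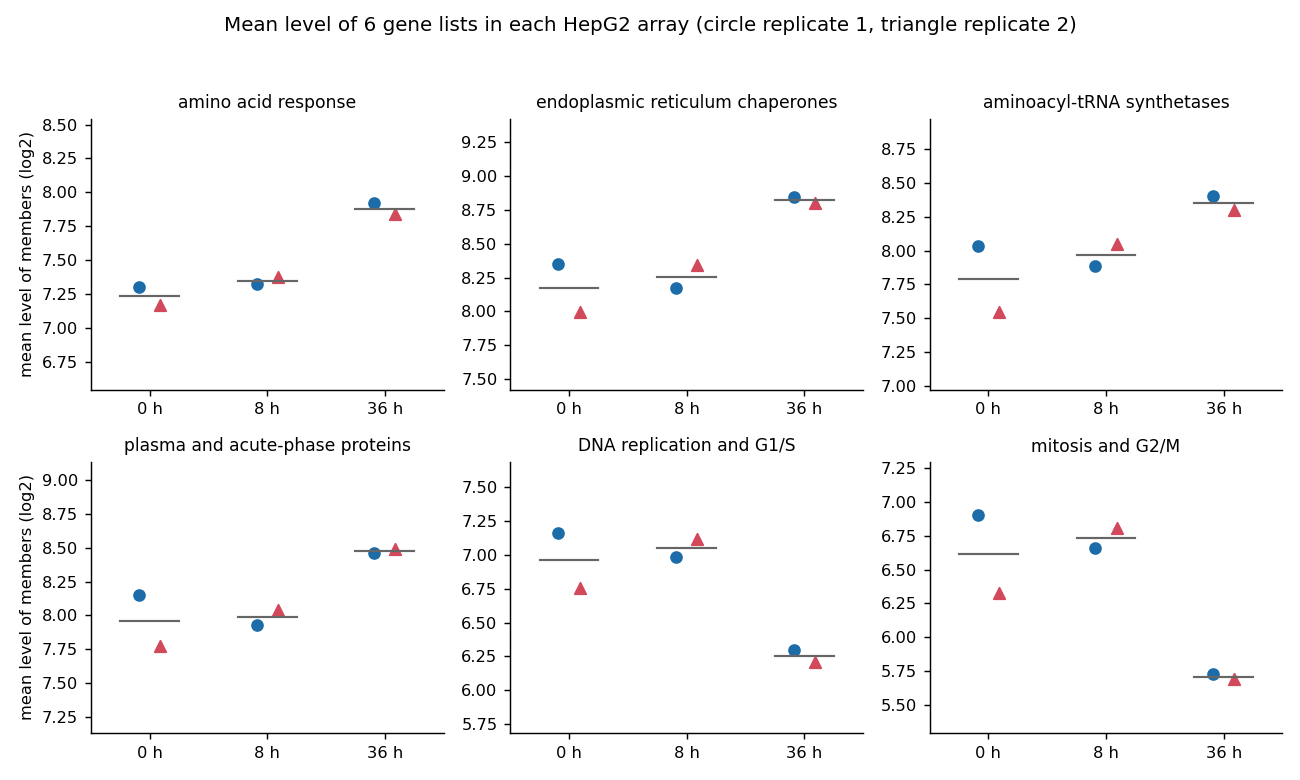
Mean level (y axis, log2) of the measured members of 6 gene lists in each HepG2 array at 0, 8 and 36 h (x axis), circles for replicate 1, triangles for replicate 2 and lines for their mean. In the 4 upper lists and the 2 cell cycle lists the 36 h arrays lie beyond all 0 h and 8 h arrays, and 0 h replicate 2 is the lowest of the 0 h and 8 h arrays in every one of the 6 lists.

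IGFBP1 had levels of 11.24 and 11.15 at 36 h, against 9.05 and 8.70 at 0 h. The 8 h arrays lay below the 0 h arrays, at 8.08 and 8.10. The change at 36 h was 2.32 ± 0.20 (adjusted p = 1.79e-09), a 5-fold rise, and 2.15 without 0 h replicate 2. IGFBP1 is secreted by liver cells and is known to be repressed by insulin and raised by ATF4. It was the 1 of 14 measured members of the insulin-like growth factor system that passed, and the list median was -0.06.

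Complement is a cascade of plasma proteases and their regulators. C5, the component cleaved to set off the terminal steps, had 9.0 and 9.04 at 36 h against 7.35 and 6.29 at 0 h. The 0 h arrays were far apart but both below the 36 h arrays, and the 8 h arrays had 6.89 and 7.11. The change was 2.19 ± 0.25 (adjusted p = 7.26e-07), and 1.66 without 0 h replicate 2. Of 24 measured members of the complement list 5 rose and 0 fell, with a median of 0.23. Among all genes 1.02% rose and 0.733% fell. CD55, a membrane inhibitor of complement, rose by 1.27 ± 0.22, and C5 and CD55 were the 2 that passed without 0 h replicate 2. The other 3 were C4BPB (1.10) and C4BPA (1.04), chains of an inhibitor, and CFB (0.78).

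Among 29 measured plasma and acute-phase proteins 9 rose and 0 fell, against 1.02% and 0.733% of all genes, with a median of 0.43. SERPINA3 and ITIH3 were the 2 that also passed without 0 h replicate 2, where the median was 0.25. SERPINA3, a protease inhibitor of the acute phase, had 11.86 and 11.84 at 36 h against 10.30 and 9.84 at 0 h, a change of 1.78 ± 0.23 (adjusted p = 9.96e-06) and a 3.42-fold rise. ITIH3, an inter-alpha inhibitor heavy chain, had 8.97 and 8.82 at 36 h against 7.91 and 7.16 at 0 h, a change of 1.36 ± 0.20 (adjusted p = 5.16e-05).

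The 3 chains of fibrinogen, the clotting protein, rose with both 0 h arrays. FGB had 9.11 and 9.26 at 36 h against 8.67 and 6.83 at 0 h, a change of 1.44 ± 0.30 (adjusted p = 0.00383) that was 0.52 without 0 h replicate 2. FGG was 1.30 and 0.58 in the same comparisons, and FGA 0.89 and 0.74. None of the 3 passed without it. The other members that rose with both 0 h arrays were CP (1.29), HP (1.29), ORM1 (1.13) and AMBP (1.01). ALB had 11.41 and 11.36 at 36 h against 11.24 and 10.66 at 0 h, a change of 0.43 ± 0.20 (adjusted p = 0.425). For the coagulation list, too, the share of all genes that rose was 1.02%. In the coagulation list SERPINC1 (0.87), the antithrombin gene, and FGL1 (1.51) rose of 24 measured members, and 0 passed without 0 h replicate 2.

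**Figure D3:**
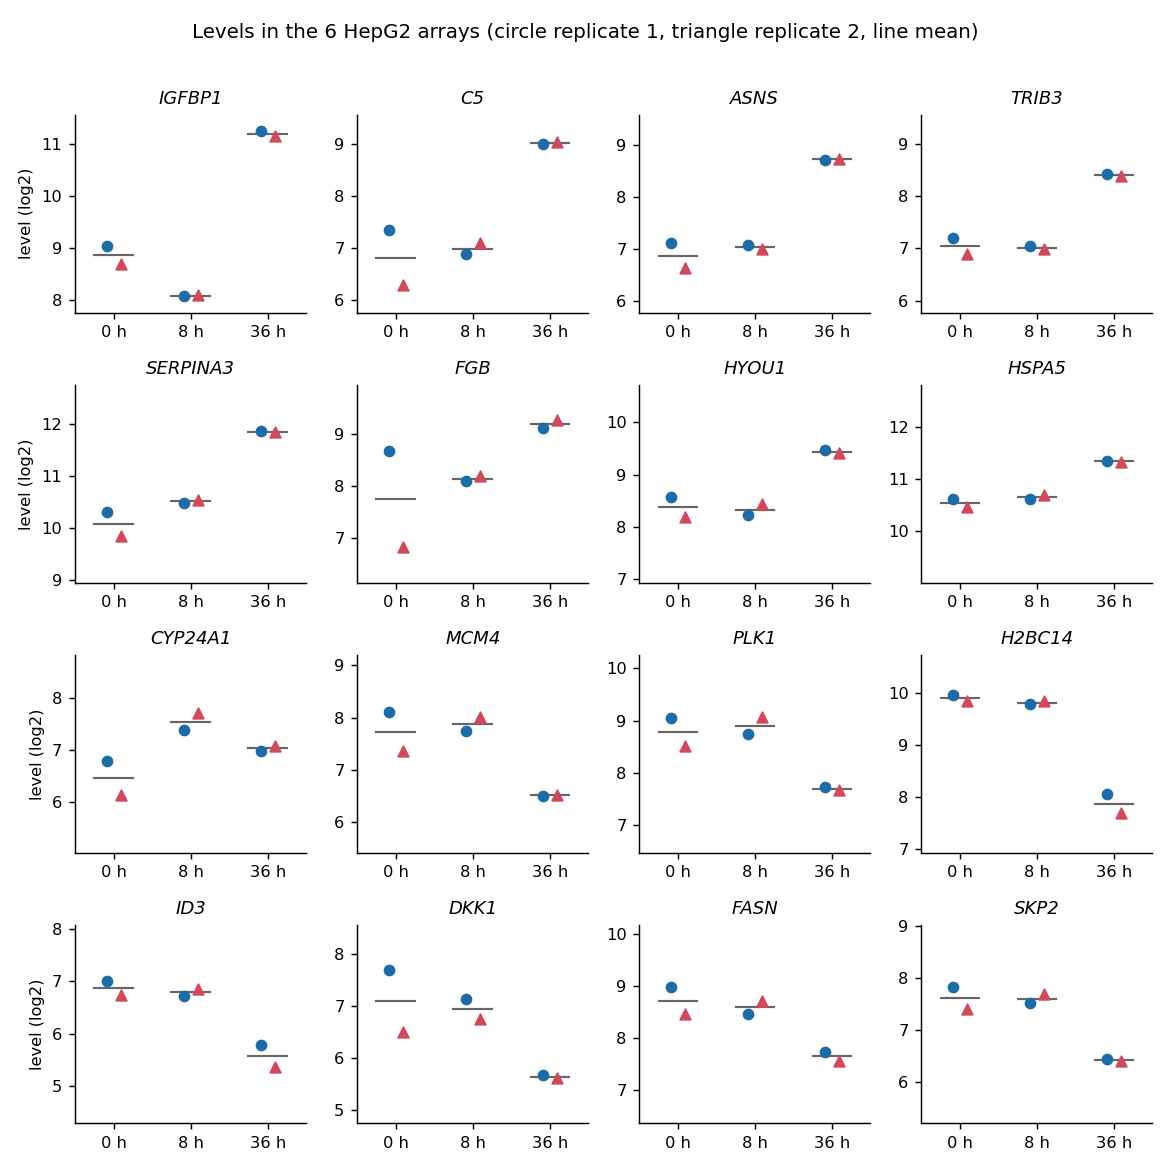
Levels of 16 genes (y axes, log2, all spanning the same number of units) in the 6 HepG2 arrays at 0, 8 and 36 h (x axis), circles for replicate 1, triangles for replicate 2 and lines for the mean of both. IGFBP1 stands near 11.2 at 36 h against 8.88 at 0 h on average, H2BC14 near 7.88 against 9.91, and CYP24A1 is highest at 8 h.

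Further genes with large rises have varied functions. MATN3, a matrix protein of cartilage, had 8.25 and 8.23 at 36 h against 7.0 and 5.93 at 0 h, a change of 1.77 ± 0.25 (adjusted p = 3.14e-05). DEPP1, a target of FOXO factors, had 8.67 and 8.33 at 36 h against 6.84 and 6.81 at 0 h, a change of 1.67 ± 0.18 (adjusted p = 3.12e-07). ARG2, the mitochondrial arginase, had 7.82 and 7.86 at 36 h against 6.41 and 5.96 at 0 h, a change of 1.65 ± 0.23 (adjusted p = 3.39e-05). These 3 were named by a rule that asks for no overlap between the groups, so their lack of overlap is no result. Without 0 h replicate 2 their changes were 1.24, 1.66 and 1.43.

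The ectonucleotidases NT5E and ENPP1, which act in turn on nucleotides outside the cell, both rose. NT5E had 6.82 and 6.78 at 36 h against 5.43 and 4.85 at 0 h (1.66 ± 0.26), and ENPP1 had 9.46 and 9.42 against 8.18 and 7.53 (1.59 ± 0.27). Without 0 h replicate 2 they were 1.38 and 1.26, and both passed. SLC17A2, a phosphate carrier family member, rose by 1.57 ± 0.20 and was 1.63 without 0 h replicate 2. HSPA13, a chaperone of the HSP70 family, rose by 1.54 ± 0.31 and did not pass without that array. The small nucleolar RNA SNORD116-21 had 7.65 and 7.48 at 36 h against 6.74 and 4.80 at 0 h, and its change of 1.79 ± 0.47 was 0.82 without 0 h replicate 2, where it did not pass.

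Genes of the cell cycle were lower at 36 h. In this bulk RNA, fewer cells in a phase and less of a transcript in each cell cannot be told apart. Among all genes 0.733% fell, the median was -0.02 and the change was negative in 9861 of 18417. Of 32 measured members of the DNA replication list 15 fell and 0 rose, with a median of -0.73, and the change was negative in 32 of 32. The count was 20 without 0 h replicate 2, with a median of -0.97, and 6 without 0 h replicate 1, with a median of -0.51. Against 8 h 18 fell, with a median of -0.83.

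MCM4, a subunit of the helicase that opens DNA for replication, had 6.50 and 6.52 at 36 h against 8.10 and 7.35 at 0 h, a change of -1.22 ± 0.19 (adjusted p = 0.0002). All other measured helicase subunits also fell: MCM7 (-0.93), MCM2 (-0.86), MCM3 (-0.85), MCM6 (-0.83) and MCM5 (-0.70). TYMS, the thymidylate synthase, and RRM1, a subunit of ribonucleotide reductase, supply DNA precursors and fell by 0.98 and 0.97. GINS2, UHRF1, CDT1, TK1, UNG, FEN1 and CDC45 had changes of -0.91 to -0.66, and CDC45 was the 1 of the 15 that did not pass without 0 h replicate 2.

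Of 31 measured members of the mitosis list 14 fell and 0 rose, against 0.733% and 1.02% of all genes, with a median of -0.88. The change was negative in 31 of 31, against 9861 of 18417 of all genes. All 14 were among the 19 that fell without 0 h replicate 2, where the median was -1.22. With 0 h replicate 1 left out instead, 5 fell and the median was -0.68. Against 8 h 20 fell, with a median of -1.06. PLK1, a kinase of mitotic entry, had 7.72 and 7.66 at 36 h against 9.05 and 8.51 at 0 h, a change of -1.09 ± 0.17 (adjusted p = 0.000148). The kinesin KIF20A had 5.38 and 5.28 at 36 h against 7.06 and 6.31 at 0 h, a change of -1.35 ± 0.29 (adjusted p = 0.00459). TPX2, a spindle assembly factor, had 6.84 and 6.65 against 8.33 and 7.60 (-1.23 ± 0.27).

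DLGAP5, which stabilises spindle fibres, had 5.31 and 5.01 at 36 h against 6.66 and 6.17 at 0 h (-1.26 ± 0.30, adjusted p = 0.0175). TOP2A, the topoisomerase that untangles chromosomes, had 7.01 and 6.94 at 36 h against 8.45 and 7.82 at 0 h (-1.16 ± 0.28, adjusted p = 0.0153). Their promoters are shown because they had the largest falls among members with a match to the cell cycle genes homology region. Through this site the MuvB complex controls mitotic genes. The letters TTTGAA, added after values were seen, were searched on both strands and stand in capitals.
DLGAP5 (chr14:55191586-55191835, minus strand): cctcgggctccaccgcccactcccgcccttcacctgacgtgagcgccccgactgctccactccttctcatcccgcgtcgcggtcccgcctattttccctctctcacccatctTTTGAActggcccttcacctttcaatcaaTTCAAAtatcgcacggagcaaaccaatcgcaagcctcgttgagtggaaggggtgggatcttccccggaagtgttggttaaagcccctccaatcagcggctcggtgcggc
TOP2A (chr17:40417897-40418146, minus strand): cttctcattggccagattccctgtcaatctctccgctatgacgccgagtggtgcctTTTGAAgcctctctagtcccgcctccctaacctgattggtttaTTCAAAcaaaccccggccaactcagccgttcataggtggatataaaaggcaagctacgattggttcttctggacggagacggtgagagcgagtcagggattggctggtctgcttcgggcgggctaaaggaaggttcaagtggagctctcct
Both held 2 matches, 1 on each strand. Promoters were found for 26 of the 31 members and 14 of these (53.8%) held a match, against 10.6% of the promoters of all tested genes. Of the members that fell, 11 had a promoter and 7 of these (63.6%) held a match, while KIF20A held 0. In the replication list it was 1 of 27 (3.7%) and in the histone list described below 17 of 52 (32.7%). KIF20A, TPX2, DLGAP5 and TOP2A passed without 0 h replicate 2 and did not pass without 0 h replicate 1. The 3 markers of proliferation MKI67 (-1.16), CCNA2 (-1.13) and BIRC5 (-0.67) fell as well, and so did BUB1B, UBE2C, AURKB, PRC1, CDC20 and KIF2C, with changes of -1.07 to -0.77.

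CKS2, a small subunit of cyclin-dependent kinases, had 6.71 and 6.47 at 36 h against 8.18 and 7.60 at 0 h, a change of -1.30 ± 0.21 (adjusted p = 0.000266). SKP2, which directs the degradation of the inhibitor p27, had 6.45 and 6.41 at 36 h against 7.82 and 7.40 at 0 h, a change of -1.18 ± 0.17 (adjusted p = 7.18e-05). SPAG5, a spindle protein, fell by 1.22 on the log2 scale. CKS2 and SPAG5 were named by a rule that asks for no overlap between the groups, so their lack of overlap is no result. SKP2 did not overlap either, which in this direction held for 16.5% of all genes. It was selected by a test on the same HepG2 arrays, so this too is no result. Changes without 0 h replicate 2 were -1.59 for CKS2, -1.39 for SKP2 and -1.46 for SPAG5. Among 23 measured genes of growth arrest and p53, 1 passed, the antiproliferative BTG1 (0.78), and the list median was -0.05.

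Histones of the replication-dependent kind are made in S phase to package new DNA. Their list was drawn up by symbol after values had been seen, and members share long stretches of sequence, so the signal of 1 gene's probes may include its copies. Of 57 measured genes 15 fell and 1 rose, against 0.733% and 1.02% of all genes, with a median of -0.38. Leaving out 0 h replicate 2, 20 fell and 1 rose, leaving out 0 h replicate 1, 12 fell and 1 rose, and against 8 h 17 fell and 1 rose.

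H2BC14 had 8.06 and 7.70 at 36 h against 9.97 and 9.85 at 0 h, a change of -2.04 ± 0.23 (adjusted p = 7.26e-07), which was -2.10 without 0 h replicate 2. H2AC4 had 6.68 and 6.19 at 36 h against 8.36 and 7.70 at 0 h (-1.60 ± 0.23). H3C2 had 7.59 and 7.37 against 9.14 and 8.55 (-1.37 ± 0.22). Both passed without 0 h replicate 2, at -1.92 and -1.66. H4C14 and H4C15 carried the same values on every array, so their fall of 1.26 is 1 measurement. The 1 gene that rose, H2BC12, had low levels of 5.39 and 5.30 at 36 h against 3.94 and 3.07 at 0 h, a change of 1.84 ± 0.30 (adjusted p = 0.000203).

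A few small nuclear and nucleolar RNAs fell, a class that stood high in 0 h replicate 1. RNU2-1, the U2 RNA of the spliceosome, is on several near-identical probe sets, and the one used here had 8.94 and 9.17 at 36 h against 10.87 and 10.11 at 0 h, a change of -1.43 ± 0.30 (adjusted p = 0.00349). The 8 h arrays had 9.59 and 9.96, and against them RNU2-1 did not pass. Of 195 small nuclear and nucleolar RNAs 101 (51.8%) were highest in 0 h replicate 1, against 18.4% of all genes. With both 0 h arrays 3 of the 195 fell, against 0.733% of all genes, and the median change was -0.15. Without 0 h replicate 2, 26 fell with a median of -0.30, and without 0 h replicate 1 the median turned to 0.07.

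In lipid synthesis a few genes were lower. FASN, the fatty acid synthase, had 7.72 and 7.56 at 36 h against 8.97 and 8.45 at 0 h, a change of -1.07 ± 0.20 (adjusted p = 0.00142). FADS2, a desaturase, had 7.32 and 7.42 at 36 h against 8.23 and 7.82 at 0 h (-0.66 ± 0.17), and DGAT1, which makes triglycerides, was at -0.62 ± 0.16. These were the 3 of 26 measured members that passed, and the list median was -0.03. FASN and FADS2 passed without 0 h replicate 2, and FASN alone of the 3 passed without 0 h replicate 1. Among 19 genes of cholesterol synthesis 0 passed by limma, with EBP at -0.62 (adjusted p = 0.0882), which passed without 0 h replicate 2 at -0.84.

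Signalling genes moved in both directions. ID3, an inhibitor of transcription factors that is raised by BMP signals, had 5.79 and 5.36 at 36 h against 7.0 and 6.74 at 0 h, a change of -1.29 ± 0.21 (adjusted p = 0.000203). Its relative ID1 fell by 0.70 and did not pass without 0 h replicate 2. BAMBI, a decoy receptor of this family, had 8.42 and 8.16 at 36 h against 7.51 and 6.98 at 0 h, a change of 1.05 ± 0.18 (adjusted p = 0.000452). The activin subunit INHBE (0.97) and the activin inhibitor FST (0.88) also rose of 20 measured members, and of these 5 genes ID3 and BAMBI passed without 0 h replicate 2.

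DKK1, a secreted inhibitor of Wnt signals, had 5.66 and 5.60 at 36 h against 7.69 and 6.49 at 0 h, a change of -1.46 ± 0.24 (adjusted p = 0.000306). The 0 h arrays were far apart, and without replicate 2 the change was -2.06. ASB9, a substrate adaptor of ubiquitin ligases, had low levels of 2.87 and 3.50 at 36 h against 4.63 and 4.60 at 0 h (-1.43 ± 0.25), and passed without 0 h replicate 2 at -1.44.

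The genes of vitamin D action were mostly not shown to differ in HepG2. CYP24A1 had 6.98 and 7.07 at 36 h against 6.78 and 6.14 at 0 h, a change of 0.57 ± 0.33 (adjusted p = 0.613). At 8 h it had 7.37 and 7.70, above both other times. VDR had 4.89 and 5.01 at 36 h against 4.70 and 5.15 at 0 h, with the 36 h arrays between the 0 h arrays (0.02 ± 0.20, adjusted p = 0.991). Of 14 measured genes of the receptor and of vitamin D metabolism 0 passed, with CYP2R1 at -0.71 (adjusted p = 0.0734).

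Of the 30 measured genes known to respond to vitamin D, 1 passed, and their median was -0.03. It was ORM1, also a plasma protein, at an adjusted p of 0.0496. ORM1 had 9.29 and 9.28 at 36 h against 8.79 and 7.52 at 0 h, and it did not pass without 0 h replicate 2. SERPINB1, a protease inhibitor of leukocytes, was at 0.92 ± 0.25 (adjusted p = 0.0503).

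In most other lists of liver functions few members passed. Among all genes 1.02% rose and 0.733% fell. In drug metabolism 3 of 28 rose, UGT2B4 (1.33), ADH4 (1.07) and the cytochrome P450 reductase POR (0.54), and 0 passed without 0 h replicate 2. ABCB4, which exports phospholipid into bile, had 6.98 and 6.51 at 36 h against 5.76 and 4.98 at 0 h, a change of 1.38 ± 0.21 (adjusted p = 0.000115), and was the 1 of 20 bile acid genes that passed. The glucose carrier SLC2A2 (1.05) was the 1 of 20 in the glycolysis list and the coactivator PPARGC1A (1.17) the 1 of 17 for gluconeogenesis. The iron exporter SLC40A1 (0.99) was the 1 of 16 for metal handling, and GCLC (1.07) and SLC7A11 the 2 of 20 for oxidative stress. Of these genes ABCB4 and SLC7A11 passed without 0 h replicate 2, where AKR1D1 (-1.26), a bile acid enzyme, fell.

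No member passed in 13 further lists with both 0 h arrays, 0 in each by limma. Some of their members with larger changes were, in apolipoproteins, APOM (0.77) and CD36 (-0.68) of 18, in immediate early genes IER3 (-0.76) of 24, in hypoxia INSIG2 (0.66) of 19, in the urea cycle HAL (0.55) of 19, in hepatocyte transcription factors PROX1 (-0.57) of 18, and in oncofetal genes IGF2BP1 (-0.57) of 13. NF-kB (19 genes) had CCL20 at -0.77, fatty acid oxidation (19) had CYP4A11 at 0.68 and the small nucleolar RNA list (12) had SNORD15A at -0.65. The rest were interferon (25), ribosomal proteins (25), lymphoid markers (11) and fibroblast markers (15). All of these last 7 lists had medians from -0.15 to 0.13. With 0 h replicate 2 left out, 1 member fell in each of 3 of the 13 lists, ABCA1 (-0.79), IGF2BP1 (-0.87) and SNORD14C (-1.93). HBE1, an embryonic globin, was the 1 of 10 erythroid and myeloid markers that passed, at 5.25 and 5.14 against 4.52 and 4.27 (0.81 ± 0.22), and it did not pass without 0 h replicate 2.

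HepG2 was set against the mean change of the other 8 lines in the same model. The difference passed for 139 probe sets (0.714%), 89 with a change above that mean (0.457%) and 50 below it (0.257%), or 86 genes above (0.467%) and 46 below (0.25%). Under quantile normalization the numbers of probe sets were 191 and 208. Leaving out 0 h replicate 2, 114 probe sets passed (0.586%), 25 above (0.128%) and 89 below (0.457%), or 24 genes (0.13%) and 76 (0.413%). IGFBP1 changed by 2.32 in HepG2 and by -0.06 on average in the others, where single lines ran from -0.44 to 0.35. C5 had 2.19 in HepG2 and 0.09 in the others, with single lines from -0.16 to 0.59. ASNS had 1.85 in HepG2 and 0.09 in the others, with single lines from -0.48 to 0.84. The differences were 2.38 ± 0.21 (adjusted p = 4.55e-09), 2.11 ± 0.26 (adjusted p = 8.64e-06) and 1.75 ± 0.19 (adjusted p = 3.55e-07). Without 0 h replicate 2 they were 2.21, 1.58 and 1.51, and all 3 passed.

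Of all genes 0.467% passed above the mean of the other lines and 0.25% below it. Of the 36 amino acid response genes 10 rose more in HepG2 than in the mean of the other lines. Of the 29 plasma proteins 7 did so, of the 19 chaperones 5 and of the 19 synthetases 4. These counts were 3, 2, 2 and 1 without 0 h replicate 2. In the cell cycle lists 2 of 32 replication genes and 3 of 31 mitosis genes fell more in HepG2 than in that mean. The list medians of the mean change in the other lines were -0.24 and -0.21. SKP2 fell in HepG2 and had a mean change of -0.01 in the others, a difference of -1.17 ± 0.18 (adjusted p = 0.0003) that was -1.38 without 0 h replicate 2 and passed.

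CYP24A1 had the largest difference of all probe sets tested, and it was negative. Its change was 0.57 in HepG2 and 3.07 on average in the other lines, of which 8 of 8 had a positive change, from 0.68 to 6.44. HL60, Ag09309, Ag09319 and K562 had 6.44, 6.08, 5.24 and 2.44. The GM lines had 0.68 to 1.38, so a small change was not particular to HepG2. The difference was -2.51 ± 0.36 (adjusted p = 6.09e-05). CD38, an ectoenzyme of immune cells, had 5.25 and 4.31 at 36 h against 4.83 and 4.88 at 0 h in HepG2, and the 36 h arrays lay on either side of the 0 h arrays. Its mean change in the other lines was 1.27, with single lines from -0.74 to 2.35. It was positive in 6 of them and negative in Ag09309 (-0.74) and Ag09319 (-0.13). The difference of HepG2 from the mean was -1.35 ± 0.26 (adjusted p = 0.00533). The differences of CYP24A1 and CD38 were -2.83 and -1.32 without 0 h replicate 2, and both passed.

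**Figure D4:**
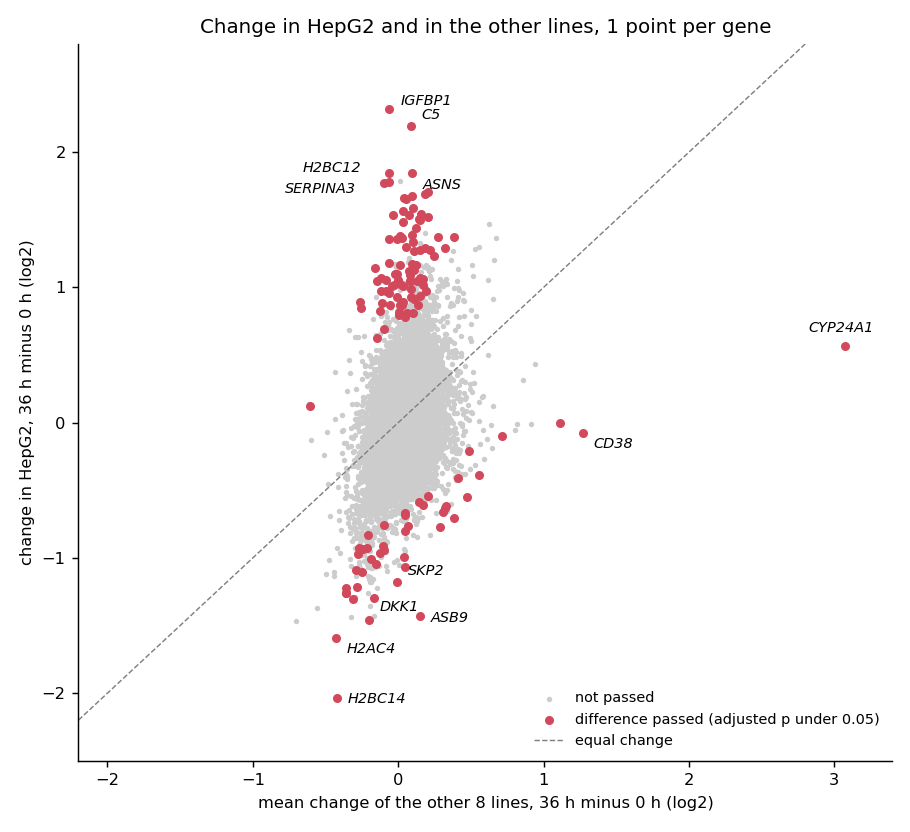
Change from 0 h to 36 h in HepG2 (y axis, log2) against the mean change of the other 8 lines (x axis, log2), 1 point per gene, with the dashed line for equal change. Coloured points, 86 above and 46 below, passed the test of the difference; IGFBP1, C5 and ASNS stand near 0 on the x axis, and CYP24A1 stands at 3.07 there and at 0.57 on the y axis.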

How the data were processed

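RNA was hybridised to Affymetrix Gene 1.0 ST arrays. The authors deposited log2 values made with Affymetrix Expression Console 1.0 and RMA, per the submitters' processing notes. No source used here states the genome build or whether all arrays were normalised together. Of 33297 probe sets, 19460 had 1 symbol in the platform annotation and were tested, 1754 had several and were left out, and the rest were unnamed here. Array medians ran from 4.98 to 5.31. No filter on low values was applied, and levels well under these medians may not be above background. The number of arrays limits the precision.

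Samples were grouped by the line and time in their labels. limma 3.58.1 (R 4.3.3) was fitted to 54 arrays in 27 groups, with 27 residual and 8.89 prior degrees of freedom, so the spread is shared over all lines and is not that of HepG2 alone. Tests were two-sided, with Benjamini-Hochberg adjustment, and the script was tested on simulated data. Genes with more than 1 probe set were counted by a single probe set. Same-numbered arrays deviated together with correlations of 0.13 (36 h and 0 h), -0.156 (36 h and 8 h) and -0.342 (8 h and 0 h), so they were not treated as pairs.

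The members and the 36 lists were chosen with earlier results of these data known. The rule named IGFBP1, ASNS, C5, CYP24A1 and VDR, the 15 largest rises and falls among genes that passed with no overlap between the groups, the list members that passed or up to 4 others, and 8 genes each way in the comparison with the other lines. ATF4, XBP1, ALB, SERPINB1 and the genes under other observations were chosen after their values were seen. The alternatives left out arrays, changed the scaling, filter, moderation, weights or probe sets, or used a replicate block. Promoters came from RefSeq (GRCh38.p14). Plots used matplotlib 3.10.9 in Python 3.11.15.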

Additional observations from a re-analysis of the deposited data

Results flagged for a closer look

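The change in HepG2 differed from the mean change of the other 8 lines for 139 probe sets, 89 above that mean and 50 below it, by limma's test of the difference itself. The values below are these differences on the log2 scale, and all of the genes named passed with both 0 h arrays. Without 0 h replicate 2, 4 of them did not pass, CTH (0.99), SLC7A11 (1.26), ENPP1 (1.15) and HSPA13 (1.21), and the others named here passed.

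Among secreted and matrix proteins the difference was 2.38 for IGFBP1, 2.11 for C5, 1.84 for SERPINA3 and 1.87 for MATN3. Among enzymes and carriers of amino acids it was 1.75 for ASNS, 1.51 for CTH, 1.5 for SLC7A11 and 1.60 for ARG2. The ectonucleotidases NT5E and ENPP1 had 1.62 and 1.48. DEPP1 had 1.58, SLC17A2 had 1.54, the chaperone HSPA13 had 1.38 and the histone gene H2BC12 had 1.9.

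Below the mean of the other lines, the histone genes H2BC14, H2AC4, H4C14 and H4C15 had differences of -1.62, -1.17, -0.905 and -0.905. The cell cycle genes SKP2, CKS2, SPAG5 and MCM4 had -1.17, -0.991, -0.93 and -0.859. ID3 had -1.13, the Wnt inhibitor DKK1 had -1.26 and ASB9 had -1.58. The test uses a mean, and in H2BC14, H2AC4, MCM4, SPAG5 and ID3 another line fell further than HepG2. The lowest changes in the other lines were -2.44, -1.94, -1.72, -1.39 and -1.56, against -2.04, -1.60, -1.22, -1.22 and -1.29 in HepG2. In H4C14, H4C15, CKS2, SKP2, DKK1 and ASB9 no other line fell as far. CYP24A1, at -2.51, and CD38, at -1.35, passed because they were higher at 36 h on average in the other lines.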

How the results depend on the processing

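The number of probe sets changed at 36 h was 359, and the number that differed from the other lines was 139. With 1 HepG2 array left out at a time they ran from 106 to 676 and from 42 to 267. The first was 278 without 0 h replicate 2, 676 without 0 h replicate 1, 138 without 36 h replicate 1 and 106 without 36 h replicate 2, and the second was 114, 267, 42 and 46 in the same order. Both were 633 and 377 without the 3 arrays that stand apart, 775 and 399 under quantile normalization and 168 and 47 with array weights. With only the 6 HepG2 arrays the first was 19, 18 higher and 1 lower, and with a replicate block 71, 43 higher and 28 lower. Most of the 204 higher and 155 lower probe sets thus did not pass in fits to HepG2 alone. The replicate block in the fit to all arrays gave 414 and 156, and the replicate numbers are only numbers here. Median centring, a floor on low values, other choices of probe sets and another moderation gave 263 to 455 and 118 to 161. The alternatives added after seeing the data gave 340 and 138 without small RNAs, and 322 for 36 h against 8 h. The causes of these shifts were not tested.

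IGFBP1, C5 and ASNS passed in 16 of 16 alternatives, with changes of 2.07 to 2.5, 1.66 to 2.72 and 1.60 to 2.09. CYP24A1 passed in 0 of 16. Of 127 named genes that passed, 0 reversed in any alternative. Of those that did not pass, VDR (-0.20 to 0.24 with 1 array left out) was -0.0070 under quantile normalization and -0.0090 under median centring. CD38 ran from -0.55 to 0.40 with 1 array left out.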

Other observations

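The genes in this paragraph belong to none of the lists, were chosen after their values were seen, and passed with both 0 h arrays, without 0 h replicate 2 and against 8 h. Cytoskeletal genes were among those that fell. TUBB4B, a beta tubulin, had 8.37 and 8.16 at 36 h against 9.47 and 9.27 at 0 h, a change of -1.11 ± 0.15. TUBA1B, an alpha tubulin, had 8.22 and 8.54 against 9.34 and 9.35 (-0.96 ± 0.17), TUBB had 10.76 and 10.60 against 11.39 and 11.40 (-0.72 ± 0.14), and ACTB, the beta actin often used as a control gene, had 10.83 and 10.64 against 11.38 and 11.34 (-0.62 ± 0.14). In all 4 the 36 h arrays lay below both 0 h arrays, which held for 16.5% of all genes. These genes were chosen among those that passed on the same arrays, so this is no result. STMN1, which destabilises microtubules, had a change of -0.91, and LMNB1, a lamin of the nuclear envelope, one of -0.97.

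Among the genes that rose were AZGP1, a secreted glycoprotein, with 8.47 and 8.34 at 36 h against 7.25 and 6.49 at 0 h (1.54 ± 0.23), and SLC6A14, an amino acid carrier, with 8.20 and 7.91 against 6.44 and 6.71 (1.48 ± 0.20). The drug exporter ABCB1 had 7.52 and 7.75 at 36 h against 6.75 and 6.33 at 0 h (1.10 ± 0.17). The lysosomal protease CTSB had 10.42 and 10.42 at 36 h against 9.62 and 9.10 at 0 h (1.06 ± 0.18).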
